A study of Homo sapiens with 18 samples.

Results

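The genes described here are PLAT, PLAU, PLAUR and SERPINE2, which encode tissue-type plasminogen activator (tPA), urokinase (uPA), the uPA receptor and the serpin protease nexin-1. They were taken by symbol from the count files of every library, 4 of the 60642 symbols listed, and all 4 passed the filter on low counts that left 15298 genes for testing. RNA was sequenced from MDA-MB-231, an established human triple-negative breast cancer (TNBC) cell line. Cells received 25 nM siRNA for 48 h, either non-specific (siNS), against the chromatin protein HP1γ (siHP1γ, spelled siHP1g in the labels) or against the arginine methyltransferase PRMT5 (siPRMT5). Each was then given 100 nM dexamethasone (Dex), a synthetic glucocorticoid, or the ethanol vehicle (Eth) for 8 h, in 3 replicates, which gives 6 conditions and 18 libraries. All cells, the siNS Eth controls included, had been transfected and kept in phenol red-free medium with charcoal-stripped serum, so no condition shows untransfected cells. The samples come from 1 cell line, and each siRNA was tested as 1 pool.

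The plasminogen system is a protease cascade that acts outside the cell. tPA and uPA cut plasminogen into plasmin, which digests fibrin and parts of the extracellular matrix; tPA is best known for its action on fibrin, whereas uPA works largely at the cell surface, where its receptor holds it. Serpins such as protease nexin-1 trap the activators, and protease nexin-1 also inhibits thrombin. uPA and its receptor are well known in breast tumours for their part in invasion. The glucocorticoid receptor (GR), which Dex activates, can raise or lower transcription, and for some of its target genes PRMT5 and HP1γ serve as coregulators.

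PLAU and PLAUR both had less RNA with Dex, and a stretch upstream of the main transcript of each is shown to let a reader see which binding letters it holds. The sequences are from the RefSeq promoter table (GRCh38.p14), in the direction of transcription. The PLAU stretch is 222 bases long, lies on the plus strand at chr10:73910882-73911103 and ends 29 bases before the start of the main transcript, with each match to the Sp1 letters GGGCGG in capitals. The PLAUR stretch is 29 bases long, lies on the minus strand at chr19:43670338-43670366 and ends 169 bases before the start of the main transcript, with its match to the AP-1 letters TGANTCA in capitals. Both stretches lie within the annotated span of their gene, since other transcripts start further upstream. The PLAUR stretch is transcribed in 1 of these, as all 250 bases of its window are annotated as the untranslated region of a longer PLAUR transcript. The PLAU stretch lies in an exon of C10orf55 on the opposite strand and stops where the untranslated region of another PLAU transcript begins, which covers 28 bases of its window. AP-1 and Sp1 are transcription factors, and AP-1 is known as a factor whose activity GR can repress.
PLAU: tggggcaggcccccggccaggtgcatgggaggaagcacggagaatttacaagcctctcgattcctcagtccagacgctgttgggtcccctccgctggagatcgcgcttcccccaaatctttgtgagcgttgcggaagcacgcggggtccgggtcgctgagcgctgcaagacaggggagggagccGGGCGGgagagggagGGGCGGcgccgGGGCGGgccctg
PLAUR: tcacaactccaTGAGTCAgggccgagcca

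Both strands were searched for these letters and for AGAACA, the letters of a short GR motif, in the 250 bases before each start site of the table, and no window of these genes held matches to more than 1 motif. The PLAU window at the main start held 3 matches to GGGCGG and 0 to the AP-1 letters. The other PLAU window held 0 matches to GGGCGG, and the SERPINE2 windows held 1 and 2. The PLAUR window held 1 match to the AP-1 letters and 0 to GGGCGG. The GR letters were in none of the windows of PLAU, PLAUR and SERPINE2 in the table. No window of PLAT was in the table, so the letters were not searched for there. Of all 35116 windows of this length, 42.6% held GGGCGG, 6.57% the AP-1 letters and 12.4% AGAACA. These are matches of letters and not binding sites, and a window without a match says only that the letters are not there.

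Each library held between 8682992 and 12472381 counted reads. The siRNAs lowered their own targets: CBX3, which encodes HP1γ, averaged 9.89 CPM (counts divided by the scaled library size) in siHP1γ Eth and 13.7 in siHP1γ Dex against 224 to 258 in the other conditions, and PRMT5 averaged 7.41 in siPRMT5 Eth and 10.5 in siPRMT5 Dex against 188 to 249. PRMT5 was also lower in siHP1γ Dex than in siNS Dex, at 188.3 against 239.2 CPM (log2 fold change -0.35, edgeR adjusted p = 0.00123). With Eth it averaged 209.1 CPM in siHP1γ cells and 249.2 in siNS cells. Of the markers checked, the mesenchymal genes VIM, CD44 and AXL were present in every library. AXL and CD44 moved with the conditions: AXL was 4.36-fold lower after PRMT5 depletion without Dex and 4.38-fold lower with Dex, 1.31-fold and 1.30-fold lower after HP1γ depletion in the same order, and CD44 had a log2 fold change of -0.54 with Dex in siNS cells (edgeR adjusted p = 3.23e-07, below the fold change set for a call). ESR1, PGR and CDH1 had at most 2 counts in any library, and so did the leukocyte gene PTPRC and the liver gene ALB. EPCAM lay between 8.57 and 14 CPM and was higher after HP1γ depletion with Dex (log2 fold change 0.47, edgeR adjusted p = 0.00482). In that comparison VIM was lower (-0.28, edgeR adjusted p = 0.0018). The endothelial gene PECAM1 was low (1.10 to 8.15 CPM) and rose with Dex in siNS cells by 1.67 on the log2 scale (edgeR adjusted p = 1.59e-05) and in siPRMT5 cells by 1.06. It was also higher without Dex after HP1γ depletion (1.03) and PRMT5 depletion (1.31), and with Dex after PRMT5 depletion (0.71). The part of these marker shifts in the results below was not tested.

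The tests are edgeR quasi-likelihood tests from one fit of the 18 libraries, with p-values adjusted over the 15298 genes, and they measure the spread between these replicates only. A Dex response was called at an adjusted p under 0.01 with a fold change of at least 1.5, and a depletion or a difference of 2 responses at an adjusted p under 0.05. In siNS cells Dex changed 3 of the 4 members, 1 upward and 2 downward, where 2.71% of all genes tested were called. In siHP1γ cells it again changed 3 of 4 (1.67% of all genes), and in siPRMT5 cells 2 of 4 (5.44%). The depletions changed a large part of the transcriptome, so a member called there stands beside a high background. HP1γ depletion changed 2 of 4 members without Dex, where 31.8% of all genes were called, and 2 of 4 with Dex, where 24.0% were. PRMT5 depletion changed 4 of 4 without Dex (42.1% of all genes) and 4 of 4 with Dex (42.4%). Between the depleted cells, 3 of 4 members differed without Dex (48.4% of all genes) and 3 of 4 with Dex (49.9%). The Dex response itself differed from that in siNS cells for 1 of 4 members after HP1γ depletion, where 0.399% of all genes did, and for 1 of 4 after PRMT5 depletion, where 3.80% did. The first share rests on 61 genes, a number that was 20 without siNS Eth replicate 1 and 186 without siNS Eth replicate 2, 147 with DESeq2 and 374 with no filter on low counts, and the second on 582 genes (319 without siNS Eth replicate 1 and 897 without siHP1γ Dex replicate 1). These comparisons share libraries, such as siNS Dex in the Dex response and in both depletions with Dex, so their values are given side by side and not as separate evidence.

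**Figure D1:**
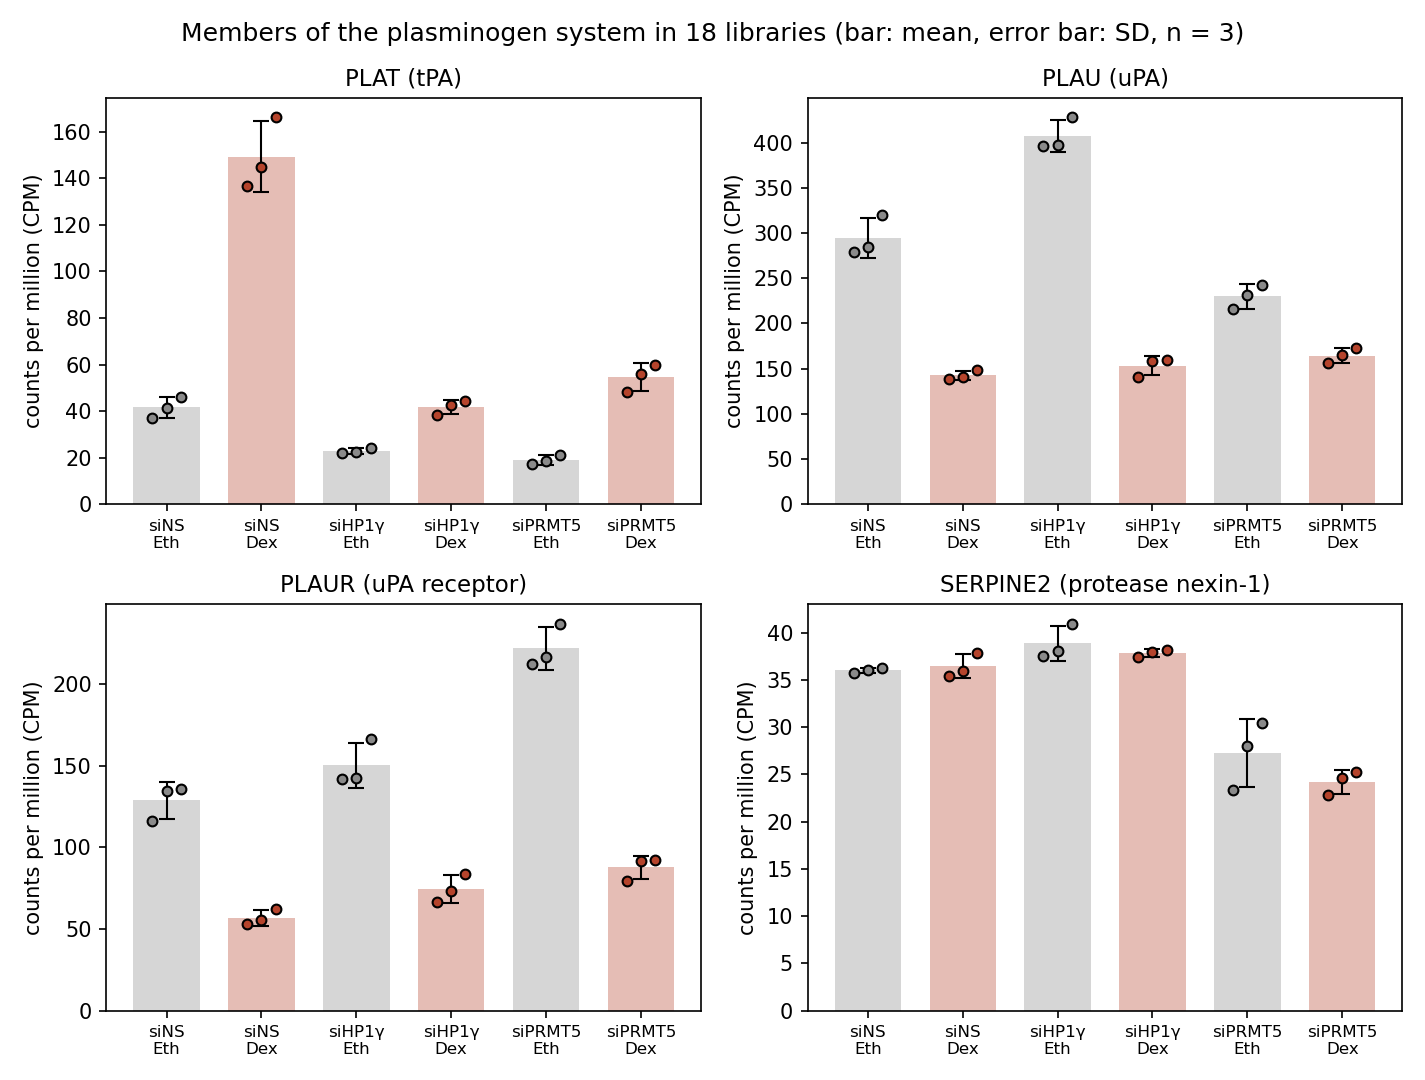
CPM of PLAT, PLAU, PLAUR and SERPINE2 (y axis, each panel with its own scale from 0) in the 6 conditions (x axis); points are libraries, bars are means and error bars are SD (n = 3). PLAT is highest in siNS Dex (136.7 to 166.2 CPM), PLAU and PLAUR are lower with Dex in each pair of bars, and SERPINE2 is lowest in both siPRMT5 conditions.

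PLAT, the gene of tPA, lies on the minus strand of chromosome 8 from 42174718 to 42207709 (hg38, GENCODE 44) and overlaps no other gene. In siNS cells it stood at 37.2, 46.3 and 41.5 CPM with Eth and at 144.9, 136.7 and 166.2 CPM with Dex. Every Dex library was far above every Eth library, and the mean rose 3.58-fold, from 41.7 ± 4.54 to 149.3 ± 15.2 CPM (SD, n = 3). The log2 fold change was 1.84 with a standard error (SE) of 0.097 (edgeR adjusted p = 1.44e-13), and 63 genes rose more. PLAT was thus the member that Dex induced. In bulk RNA, less RNA in each cell cannot be told apart from fewer cells that express the gene.

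Both depletions lowered PLAT, with or without the hormone. In siHP1γ cells it was at 24.3, 22.4 and 22.1 CPM with Eth and at 38.4, 42.7 and 44.2 CPM with Dex. In siPRMT5 cells it was at 18.7, 21.2 and 17.2 CPM with Eth and at 55.9, 48.3 and 60.0 CPM with Dex. No depleted Dex library came near the siNS Dex libraries, and the siHP1γ Dex libraries overlapped the siNS libraries that had received no Dex. Against siNS Dex, PLAT was 3.58-fold lower in siHP1γ Dex (log2 fold change -1.84 ± 0.096 SE, edgeR adjusted p = 4.88e-13), with 12 genes that fell more, and 2.74-fold lower in siPRMT5 Dex (-1.45 ± 0.095, adjusted p = 4.19e-12), with 261 that fell more. Without Dex it was 1.82-fold lower in siHP1γ cells (edgeR adjusted p = 1.08e-06) and 2.20-fold lower in siPRMT5 cells (adjusted p = 8.80e-09), with 370 and 561 genes that fell more, respectively. Of the glucocorticoid targets checked, FKBP5 (log2 fold change -1.01) and TSC22D3 (-0.82) were also lower in siHP1γ Dex than in siNS Dex. PER1 (-0.21, edgeR adjusted p = 0.0898) and the GR gene NR3C1 (0.05, adjusted p = 0.758) did not pass there. In siPRMT5 Dex, FKBP5 (0.51), TSC22D3 (0.78), PER1 (0.34) and NR3C1 (0.31) were higher than in siNS Dex. The part of these shifts in the PLAT results was not tested.

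PLAT still responded to Dex in the depleted cells. It rose 1.82-fold in siHP1γ cells (edgeR adjusted p = 2.56e-06) and 2.87-fold in siPRMT5 cells (adjusted p = 4.54e-11). The response in siHP1γ cells was smaller than that in siNS cells by 0.97 on the log2 scale (95% interval -1.27 to -0.68, edgeR adjusted p = 0.000872). For siPRMT5 cells the difference was -0.32 (95% interval -0.62 to -0.01, adjusted p = 0.238), which did not pass. In a direct comparison of the depletions, PLAT was 1.31-fold higher in siPRMT5 Dex than in siHP1γ Dex (edgeR adjusted p = 0.00210). Without Dex it did not differ past the threshold (log2 fold change -0.27, 95% interval -0.51 to -0.03, adjusted p = 0.0621), although the libraries did not overlap, and that comparison passed without siPRMT5 Eth replicate 2 (-0.34). In order of its mean, PLAT ran from siPRMT5 Eth through siHP1γ Eth, siNS Eth, siHP1γ Dex and siPRMT5 Dex to siNS Dex, and only siNS Eth and siHP1γ Dex, neighbours in this order, had overlapping libraries.

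PLAU, the gene of uPA, is on the plus strand of chromosome 10 from 73909177 to 73917496 and shares 915 bases of exon with the lncRNA C10orf55 on the opposite strand. The strand setting of the counting is not stated, so reads of the pair cannot be told apart; C10orf55 was listed with 6 to 27 counts per library and PLAU with 1291 to 4410. In siNS cells PLAU stood at 278.7, 319.8 and 284.9 CPM with Eth and at 148.2, 140.7 and 139.1 CPM with Dex. The groups lay far apart, and the mean fell 2.06-fold, from 294.5 ± 22.2 to 142.7 ± 4.87 CPM (SD, n = 3; log2 fold change -1.05 ± 0.072 SE, edgeR adjusted p = 3.47e-11). The RNAs of the activators thus moved in opposite directions with Dex, PLAT up and PLAU down.

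Without Dex the depletions moved PLAU in opposite directions. It was at 428.0, 396.6 and 397.2 CPM in siHP1γ Eth, 1.38-fold above siNS Eth (log2 fold change 0.47, edgeR adjusted p = 1.39e-05). In siPRMT5 Eth it was at 231.2, 242.6 and 215.9 CPM, 1.28-fold below siNS Eth (-0.36, adjusted p = 0.000206). All 3 Eth groups were clear of each other, and siPRMT5 Eth was 1.77-fold below siHP1γ Eth (-0.83, adjusted p = 5.08e-10).

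With Dex the PLAU levels of the 3 cell states lay close together. They were 140.8, 159.5 and 159.0 CPM in siHP1γ Dex and 164.8, 155.9 and 172.9 CPM in siPRMT5 Dex. The highest group mean was 1.15 times the lowest with Dex, against 1.77 times with Eth. HP1γ depletion with Dex gave a log2 fold change of 0.10 (95% interval -0.05 to 0.25, edgeR adjusted p = 0.340), with overlapping libraries. PRMT5 depletion with Dex raised PLAU by 0.20 (95% interval 0.06 to 0.35, adjusted p = 0.0243), a call that was lost with no filter on low counts and without siNS Dex replicate 2, siNS Dex replicate 3 or siPRMT5 Dex replicate 3 in turn (0.17 to 0.25 over all libraries left out). The siPRMT5 Dex and siHP1γ Dex libraries overlapped (0.10, 95% interval -0.04 to 0.25, edgeR adjusted p = 0.238). In order of its mean, PLAU ran from siNS Dex through siHP1γ Dex, siPRMT5 Dex, siPRMT5 Eth and siNS Eth to siHP1γ Eth, and neighbours overlapped among the Dex conditions alone.

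The fall of PLAU with Dex was 2.66-fold in siHP1γ cells (log2 fold change -1.41, edgeR adjusted p = 1.26e-13) and 1.40-fold in siPRMT5 cells (-0.48, adjusted p = 1.45e-05). The second is below the fold change of 1.5 set for a call, although its libraries with and without Dex did not overlap. The response in siPRMT5 cells differed from that in siNS cells by 0.56 on the log2 scale (95% interval 0.35 to 0.77, edgeR adjusted p = 0.00184). For siHP1γ cells the difference was -0.37 (95% interval -0.57 to -0.16, adjusted p = 0.0932), which passed only under some settings, among them without siNS Eth replicate 2 (-0.30 to -0.42 over all libraries left out).

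**Figure D2:**
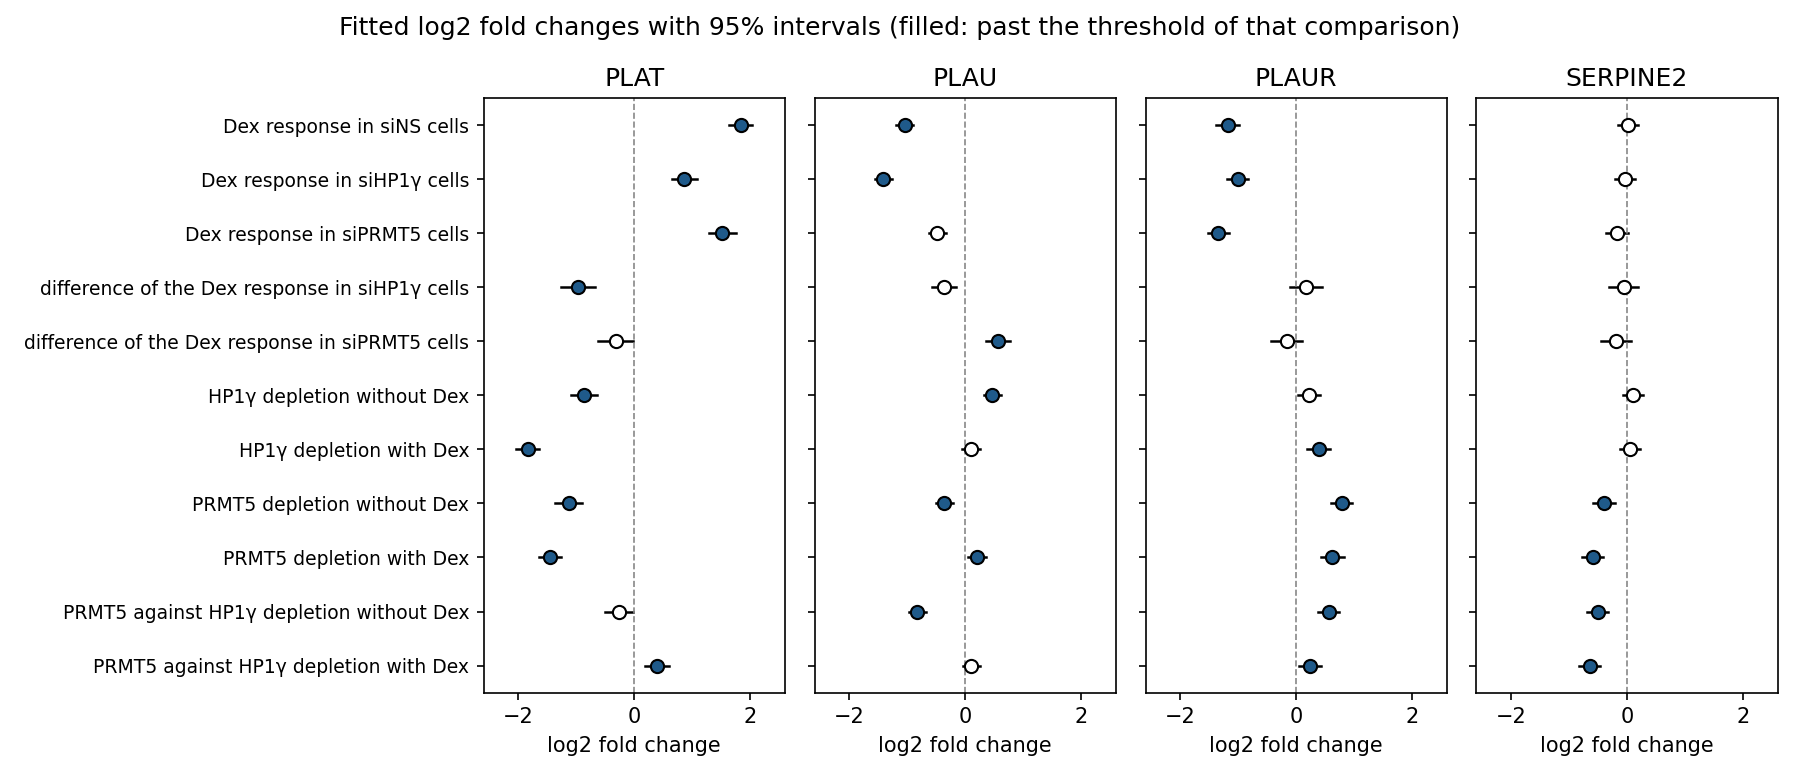
Log2 fold changes (x axis) of the 4 members in 11 comparisons (y axis) from the edgeR fit; lines are 95% intervals and filled points passed the threshold of that comparison. PLAT lies to the right in the 3 Dex responses and to the left in the 4 depletions, while PLAUR shows the opposite pattern, apart from 1 depletion (HP1γ without Dex) in which its point is open.

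PLAUR, the gene of the uPA receptor, is on the minus strand of chromosome 19 from 43646095 to 43670547, and the small RNA gene RN7SL368P inside it shares 0 bases of exon with it. In siNS cells it stood at 115.9, 135.8 and 134.7 CPM with Eth and at 55.3, 52.8 and 62.0 CPM with Dex. Its libraries separated clearly, and the mean fell 2.27-fold, from 128.8 ± 11.2 to 56.7 ± 4.76 CPM (SD, n = 3; log2 fold change -1.18 ± 0.094 SE, edgeR adjusted p = 6.55e-10). In siHP1γ cells it went from 166.2, 142.6 and 141.9 CPM with Eth to 66.6, 73.3 and 83.8 CPM with Dex, 2.02-fold lower (adjusted p = 1.42e-08). In siPRMT5 cells it went from 237.1, 216.5 and 212.5 CPM to 91.8, 79.7 and 92.0 CPM, 2.53-fold lower (adjusted p = 1.52e-11). The RNA of the receptor thus fell with Dex in all 3 cell states. The response in siHP1γ cells differed from that in siNS cells by 0.17 (95% interval -0.10 to 0.44, edgeR adjusted p = 0.532) and that in siPRMT5 cells by -0.16 (95% interval -0.43 to 0.11, adjusted p = 0.554).

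PRMT5 depletion raised PLAUR, by 1.72-fold without Dex (log2 fold change 0.78, edgeR adjusted p = 9.63e-08) and by 1.54-fold with Dex (0.63, adjusted p = 7.38e-06). HP1γ depletion raised it 1.31-fold with Dex (0.39, adjusted p = 0.00356). Without Dex the siHP1γ libraries were all above the siNS libraries, but the difference of 0.22 (95% interval 0.04 to 0.41, adjusted p = 0.0636) did not pass; it passed without siHP1γ Dex replicate 1 (0.14 to 0.25 over all libraries left out). PLAUR was 1.48-fold higher in siPRMT5 Eth than in siHP1γ Eth (edgeR adjusted p = 9.56e-06). It was 1.18-fold higher in siPRMT5 Dex than in siHP1γ Dex (adjusted p = 0.0382), where the libraries overlapped and the call was lost without siPRMT5 Dex replicate 1 or 3 or siHP1γ Dex replicate 1 or 2 (log2 fold change 0.16 to 0.33). The highest PLAUR mean was thus in siPRMT5 Eth and the lowest in siNS Dex, and of the neighbours in order only siHP1γ Dex and siPRMT5 Dex overlapped.

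SERPINE2, the gene of protease nexin-1, is on the minus strand of chromosome 2 from 223975045 to 224039318 and overlaps no other gene. Dex left no called change in it. In siNS cells it stood at 35.8, 36.3 and 36.0 CPM with Eth and at 37.9, 36.0 and 35.5 CPM with Dex, and the groups overlapped (log2 fold change 0.02, 95% interval -0.16 to 0.19, edgeR adjusted p = 0.941). In siHP1γ cells the response was -0.04 (95% interval -0.21 to 0.13, adjusted p = 0.869). In siPRMT5 cells it was -0.18 (95% interval -0.37 to 0.01, adjusted p = 0.219). The first 2 changed sign without 1 library, siNS Dex replicate 1 for siNS cells (-0.017) and siHP1γ Eth replicate 2 for siHP1γ cells (0.00099). Neither difference of responses passed (-0.06, 95% interval -0.30 to 0.19, adjusted p = 0.856 for siHP1γ cells; -0.19, 95% interval -0.45 to 0.06, adjusted p = 0.422 for siPRMT5 cells).

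PRMT5 depletion lowered SERPINE2. It was at 28.0, 23.4 and 30.4 CPM in siPRMT5 Eth, 1.32-fold below siNS Eth (log2 fold change -0.40 ± 0.089 SE, edgeR adjusted p = 0.000753). In siPRMT5 Dex it was at 24.6, 22.8 and 25.2 CPM, 1.51-fold below siNS Dex (-0.59 ± 0.089, adjusted p = 6.08e-06). All siPRMT5 libraries were below all siNS and siHP1γ libraries. In siHP1γ cells it was at 38.1, 41.0 and 37.6 CPM with Eth and at 37.4, 38.1 and 38.0 CPM with Dex. HP1γ depletion gave 0.11 without Dex (95% interval -0.07 to 0.29, adjusted p = 0.357) and 0.05 with Dex (95% interval -0.12 to 0.23, adjusted p = 0.695). SERPINE2 was 1.42-fold lower in siPRMT5 Eth than in siHP1γ Eth (adjusted p = 3.51e-05) and 1.57-fold lower with Dex (adjusted p = 1.07e-06). In order of its mean, SERPINE2 ran from siPRMT5 Dex through siPRMT5 Eth, siNS Eth, siNS Dex and siHP1γ Dex to siHP1γ Eth, and the neighbours that did not overlap were siPRMT5 Eth and siNS Eth.

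Levels of different genes were set against each other per length, as CPM per kb of annotated exon. The labels do not say whether the libraries cover whole transcripts or their ends only, in which case length would not enter the counts, so an order between genes holds only for this scale. In siNS Eth, PLAU was the highest at 99.9 ± 7.51 CPM per kb, followed by PLAUR (28.9 ± 2.51), PLAT (5.36 ± 0.584) and SERPINE2 (4.02 ± 0.0288) (SD, n = 3). In siNS Dex, PLAU was at 48.4, PLAT at 19.2, PLAUR at 12.7 and SERPINE2 at 4.07 CPM per kb. PLAT had thus passed PLAUR on this scale. The length is that of all annotated exons of a gene joined, 7770 bases for PLAT and 2949 for PLAU. In CPM without length, PLAT averaged 149.3 and PLAU 142.7 in siNS Dex, with overlapping libraries. The place of PLAT below PLAU in that condition thus depends on the scale.

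A ratio of 1 gene to another in the same library can be compared between conditions whatever the scale. Per kb, PLAT was 5.36% ± 0.259 of PLAU in siNS Eth and 39.8% ± 4.83 in siNS Dex (SD, n = 3), with libraries from 36.9% to 45.4% in the latter. In siHP1γ cells it was 2.13% ± 0.0225 with Eth and 10.4% ± 0.190 with Dex. In siPRMT5 cells it was 3.14% ± 0.163 with Eth and 12.6% ± 0.741 with Dex. The share of PLAT rose with Dex in each cell state, and no depleted library reached the lowest siNS Dex library. With 3 libraries against 3, an exact permutation test cannot give a p below 0.1.

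**Figure D3:**
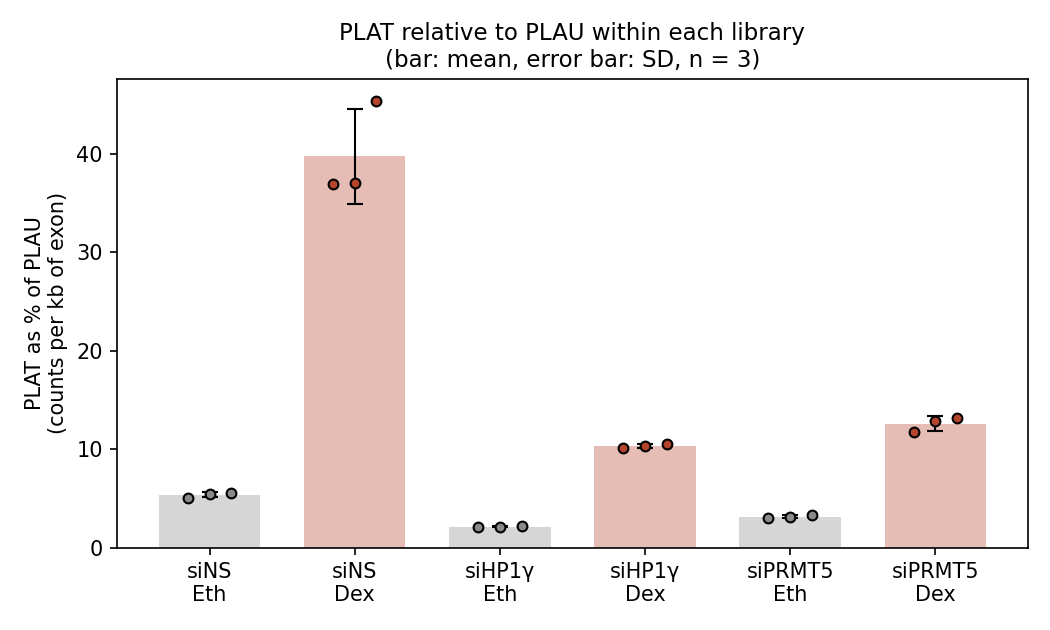
PLAT as a percentage of PLAU, both in counts per kb of exon (y axis), in the 6 conditions (x axis); points are libraries, bars are means and error bars are SD (n = 3). The siNS Dex libraries lie between 36.9% and 45.4%, and the highest depleted library, in siPRMT5 Dex, is at 13.2%.

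The other genes of the system were followed in 6 lists that hold 45 genes, of which 29 could be tested. With Dex, 2 rose and 2 fell in siNS cells (13.8% of the 29, beside 2.71% of all genes tested), 1 fell in siHP1γ cells (3.45% beside 1.67%), and 3 rose and 3 fell in siPRMT5 cells (20.7% beside 5.44%). HP1γ depletion raised 12 and lowered 7 without Dex (65.5% beside 31.8%) and raised 6 and lowered 5 with Dex (37.9% beside 24.0%). PRMT5 depletion raised 10 and lowered 10 without Dex (69% beside 42.1%) and raised 6 and lowered 9 with Dex (51.7% beside 42.4%). No test was made of these shares. The median log2 fold change of the 29 lay between -0.17 and 0.20 in the 11 comparisons, beside -0.01 and 0.01 for all genes tested. Of 122 calls in the lists, 30 were lost under at least 1 of up to 25 other settings, each of them when some single library was left out. For the difference of the Dex response in siHP1γ cells edgeR called 0 of the 29, with 8 at an unadjusted p under 0.05 and 2 called by DESeq2. Plasminogen itself (PLG) had 0 counts in every library, so the substrate of tPA and uPA was not detected as RNA in these cells.

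**Figure D4:**
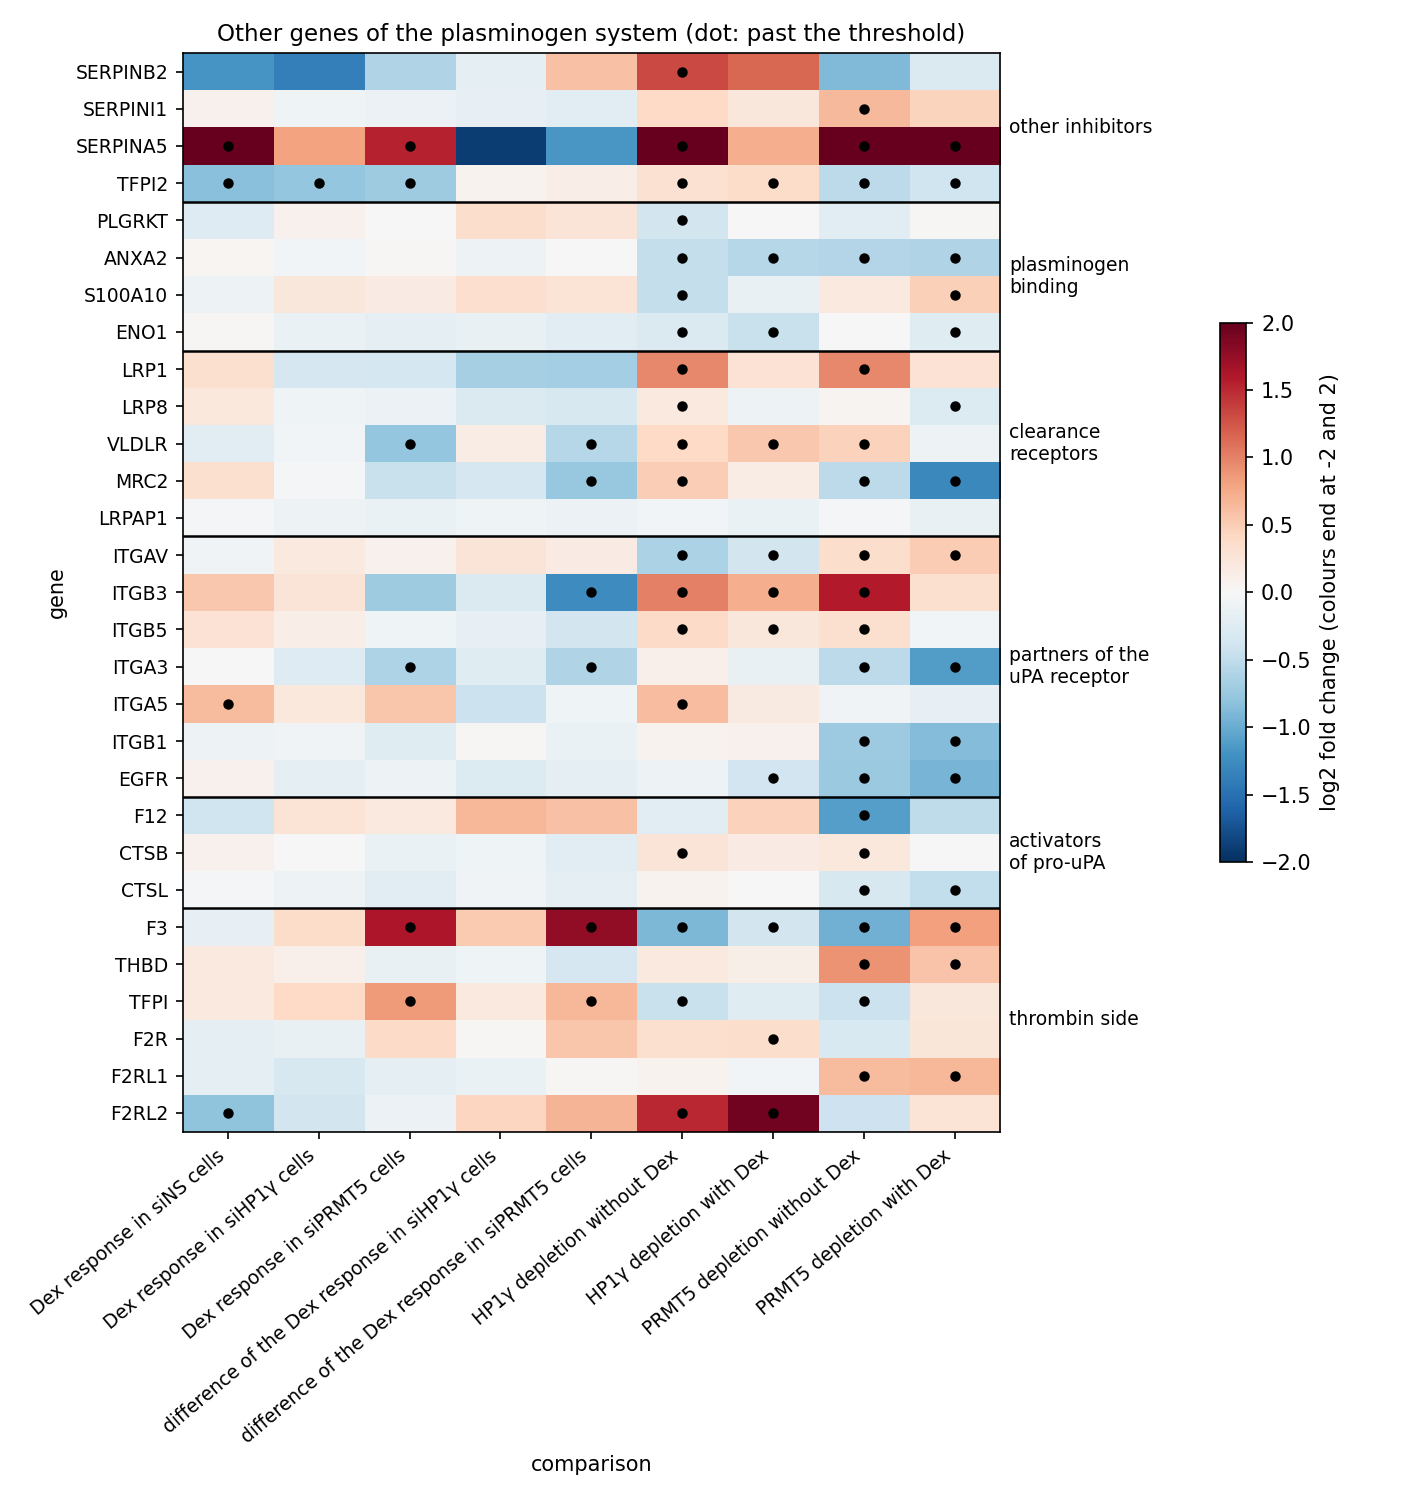
Log2 fold changes (colour, limited to -2 and 2) of the 29 tested genes of the 6 lists (rows) in 9 comparisons (columns); dots mark genes past the threshold. The columns of Dex responses hold 1 to 6 dots and those of depletions 11 to 20, beside 1.67% to 5.44% and 24.0% to 42.4% of all genes tested. F3 has the strongest red of the column for the difference of the Dex response in siPRMT5 cells (1.78).

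Of 8 other inhibitors of the activators or of plasmin, 4 were tested. TFPI2, a Kunitz-type inhibitor of plasmin, fell with Dex in all 3 cell states, from 19.8 ± 0.339 to 11.1 ± 1.47 CPM in siNS cells (log2 fold change -0.83, edgeR adjusted p = 3.73e-06), by 0.77 on the log2 scale in siHP1γ cells and by 0.71 in siPRMT5 cells. PRMT5 depletion lowered it by 0.53 without Dex and by 0.40 with Dex, the second lost without siNS Dex replicate 1 or 3. HP1γ depletion gave 0.30 without Dex and 0.36 with Dex, calls that were lost in 6 and 5 of 25 settings. SERPINA5, the protein C inhibitor, shares 132 bases of exon with overlapping genes. It had 0 to 2 counts per library in siNS Eth, 6 to 12 in siHP1γ Eth and 14 to 20 in siPRMT5 Eth. With Dex it had 9 to 12 in siNS cells, 15 to 23 in siHP1γ cells and 52 to 65 in siPRMT5 cells. Its rise with Dex was called in siNS cells, a call lost without siNS Dex replicate 1 or siNS Eth replicate 3 (adjusted p up to 0.0192), and in siPRMT5 cells (1.54, adjusted p = 1.73e-05). It was higher in siPRMT5 than in siNS cells with Dex by 2.49 (adjusted p = 1.82e-08). Without Dex it was higher after HP1γ depletion (2.63, edgeR adjusted p = 0.000981) and after PRMT5 depletion (3.10 to 4.06 over 24 settings). No setting ended either of these calls without Dex. SERPINB2, also an inhibitor of uPA, had at most 22 counts in any library and shares 547 bases of exon with another gene; it passed as higher after HP1γ depletion without Dex (1.32, adjusted p = 0.00672), a call lost under 1 of 24 settings. SERPINI1, neuroserpin, an inhibitor of tPA, was higher after PRMT5 depletion without Dex (0.65, adjusted p = 0.0271), a call lost under 6 of 25 settings. SERPINF2, A2M, PZP and CPB2 had at most 2 counts in any library.

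Of 6 genes for plasminogen and the proteins that hold it at the cell surface, 4 were tested. In siNS cells their Dex responses lay between -0.26 and 0.04, and edgeR called 0 of 4, with 0 at an unadjusted p under 0.05 and 0 called by DESeq2. ANXA2, which encodes annexin A2, was lower in each depletion, by 0.47 to 0.60 on the log2 scale (for HP1γ with Dex -0.57, edgeR adjusted p = 5.67e-05); processed copies of it are listed in the files and could share its reads. S100A10, the partner of annexin A2, was lower after HP1γ depletion without Dex (-0.48, adjusted p = 0.000194) and higher after PRMT5 depletion with Dex (0.47, adjusted p = 0.000107). ENO1, enolase, was lower after HP1γ depletion with Dex (-0.44, adjusted p = 0.000233); its calls after HP1γ depletion without Dex (-0.29) and PRMT5 depletion with Dex (-0.23) were lost without 1 library, siNS Eth replicate 2 in the first and siNS Dex replicate 2 or siPRMT5 Dex replicate 2 in the second. PLGRKT, a plasminogen receptor, was lower after HP1γ depletion without Dex (-0.36, adjusted p = 0.0446), a call lost in 9 of 25 settings. HRG, like PLG, was too low to test.

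Of 7 genes for endocytic receptors that clear the activators and for their chaperone, 5 were tested. LRP1, the receptor that takes up complexes of activators and serpins, was higher without Dex in both depletions, by 0.95 for HP1γ (edgeR adjusted p = 9.15e-06) and by 0.96 for PRMT5 (adjusted p = 4.33e-06). With Dex its values were 0.29 and 0.28 and did not pass. VLDLR, another receptor of such complexes, fell with Dex in siPRMT5 cells from 60.7 ± 2.20 to 35.5 ± 2.59 CPM (-0.78, adjusted p = 9.67e-08), and this response differed from that in siNS cells by -0.57 (adjusted p = 0.00685). In siNS cells it averaged 44.05 CPM with Eth and 38.07 with Dex. Without Dex both depletions raised it, by 0.34 to 0.46 for HP1γ and 0.42 to 0.48 for PRMT5 over 25 settings. With Dex, HP1γ depletion raised it by 0.54 (edgeR adjusted p = 2.23e-05), and PRMT5 depletion gave -0.11 (adjusted p = 0.348). MRC2, which binds the complex of uPA with its receptor, was lower after PRMT5 depletion with Dex by 1.29 on the log2 scale (adjusted p = 1.27e-07). Its difference of responses in siPRMT5 cells (-0.76, adjusted p = 0.0445) was lost in 15 of 25 settings. LRP8 passed after HP1γ depletion without Dex (0.20) and after PRMT5 depletion with Dex (-0.27), the first lost in 10 of 25 settings. The chaperone LRPAP1 passed in 0 of 11 edgeR comparisons and in 0 with DESeq2, with values between -0.15 and 0.03 and 0 at an unadjusted p under 0.05, and LRP2 and SORL1 were too low to test.

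Among the partners of the uPA receptor, 7 of 11 genes were tested. ITGA5, a subunit of the fibronectin receptor, rose with Dex in siNS cells from 123.1 ± 3.24 to 191.6 ± 11.4 CPM (log2 fold change 0.64, edgeR adjusted p = 3.09e-07). PRMT5 depletion with Dex lowered ITGA3 (-1.12, adjusted p = 2.98e-11), EGFR (-0.93, adjusted p = 6.69e-09) and ITGB1 (-0.87, adjusted p = 1.41e-11), while it raised ITGAV (0.51, adjusted p = 0.000398). ITGA3, ITGB1 and EGFR were lower after PRMT5 depletion without Dex as well, by 0.52, 0.73 and 0.74 on the log2 scale. In the same comparison ITGB3 (1.58, adjusted p = 4.10e-06), ITGB5 (0.33) and ITGAV (0.36) were higher, the last a call lost without siNS Eth replicate 3 or siPRMT5 Eth replicate 3. ITGB3 had 17 to 22 counts per library in siNS Eth and shares 2266 bases of exon with overlapping genes. HP1γ depletion without Dex gave -0.63 for ITGAV (adjusted p = 0.000101), 1.01 for ITGB3, 0.39 for ITGB5 and 0.61 for ITGA5. With Dex it gave -0.38 for EGFR (edgeR adjusted p = 0.00249), a call kept in all 25 settings. ITGAV (-0.37), ITGB3 (0.72) and ITGB5 (0.22) passed there too, calls lost in 2, 2 and 8 of 25 settings. The Dex response in siPRMT5 cells differed from that in siNS cells for ITGA3 (-0.67 to -0.50 over 25 settings) and for ITGB3, the second lost in 7 of 25. VTN, FPR1, FPR2 and FPR3 were too low to test. Of 6 proteases that activate pro-uPA, 3 were tested. Their Dex responses in siNS cells lay between -0.40 and 0.09, with 0 of 3 called by edgeR or DESeq2 and 0 at an unadjusted p under 0.05. CTSL, cathepsin L, was lower after PRMT5 depletion with Dex (-0.50, adjusted p = 1.94e-05) and without it (-0.32), F12 was lower without Dex (-1.11, adjusted p = 0.00230), and CTSB passed only in calls that single libraries could end. The value of F12 was -0.73 without siPRMT5 Eth replicate 1 and -1.65 without siPRMT5 Eth replicate 2, and the siPRMT5 Eth libraries held 9 to 35 counts of it. ST14, HPN and KLKB1 were too low to test.

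Because protease nexin-1 also inhibits thrombin, 7 genes of that side were followed, and 6 were tested. F3, which encodes tissue factor, the starter of coagulation, stood at 193.1 ± 11.3 CPM in siNS Eth and 171.9 ± 21.5 in siNS Dex, and at 99.4 ± 10.2 in siPRMT5 Eth and 304.5 ± 9.94 in siPRMT5 Dex (SD, n = 3). In siHP1γ cells it stood at 103.5 ± 11.4 CPM with Eth and 132.9 ± 5.98 with Dex. Without Dex its log2 fold change was -0.99 to -0.83 after HP1γ depletion and -1.03 to -0.89 after PRMT5 depletion, over 25 settings. With Dex, HP1γ depletion gave -0.37 (edgeR adjusted p = 0.00295) and PRMT5 depletion 0.82 (adjusted p = 2.87e-08). F3 rose with Dex in siPRMT5 cells (log2 fold change 1.61, edgeR adjusted p = 3.09e-13), and this response differed from that in siNS cells by 1.78 (adjusted p = 1.42e-09). TFPI, the inhibitor of the tissue factor pathway, rose with Dex in siPRMT5 cells by 0.86 (adjusted p = 1.33e-07), with a difference of responses of 0.66 (adjusted p = 0.00492). With Eth it averaged 270.9 CPM in siNS cells, 198.2 in siHP1γ cells and 200 in siPRMT5 cells. With Dex it averaged 311.4 CPM in siNS cells and 362.6 in siPRMT5 cells, a difference that did not pass (0.22, edgeR adjusted p = 0.0601). F2RL2, the gene of the thrombin receptor PAR3, was 2.83-fold higher after HP1γ depletion without Dex (adjusted p = 2.59e-08) and 3.83-fold higher with Dex (adjusted p = 2.41e-09). Its fall with Dex in siNS cells (-0.81, adjusted p = 0.00541) was lost in 5 of 25 settings. THBD, thrombomodulin, and F2RL1, the gene of PAR2, were higher after PRMT5 depletion with and without Dex, by 0.56 to 0.91. F2R, the gene of PAR1, passed after HP1γ depletion with Dex (0.35), a call lost in 9 of 25 settings, and F2RL3 was too low to test.

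For each member, the 3 genes whose log2 CPM followed it most closely over the 18 libraries were found among 11410 genes, as a description in which the libraries of a condition are not independent. PLAT was followed by IGFBP3 (Pearson r = 0.955), EZR (0.947) and AFAP1L1 (0.944). IGFBP3, which encodes a binding protein of insulin-like growth factors, went from 196.3 CPM in siNS Eth to 494.9 in siNS Dex and stood at 188.7 in siHP1γ Dex. In siPRMT5 cells it went from 63.3 CPM with Eth to 302 with Dex. PLAU was followed by IL1B (0.926), STC1 (0.897) and PHLDA1 (0.895). IL1B, the gene of the cytokine interleukin-1 beta, went from 35.8 CPM in siNS Eth to 20.4 in siNS Dex and was highest in siHP1γ Eth at 52.6. PLAUR was followed by AC010247.2 (0.947), SEMA3A (0.946) and PRDM8 (0.945), and SERPINE2 by STK38 (0.966), ZNF385A (0.964) and DSTYK (0.964). ZNF385A was at 14.1 CPM in siNS Eth and at 2.20 in siPRMT5 Eth. When Spearman's rho replaced Pearson's r, 2 of 3 genes stayed for PLAT, 1 of 3 for PLAU, 1 of 3 for PLAUR and 0 of 3 for SERPINE2. Taken as deviations from the condition means, the same genes had much lower r. It was 0.135 to 0.275 for PLAT, -0.193 to 0.323 for PLAU and -0.239 to 0.225 for PLAUR. For SERPINE2 it was 0.454 to 0.678. The high r values thus describe mostly the differences between conditions, least so for SERPINE2.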

How the data were processed

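RNA was sequenced in 18 libraries of MDA-MB-231 cells, 3 in each of 6 conditions, grouped by the siRNA, the treatment and the replicate number in the sample labels. Libraries were made with Lexogen kits. Per the submitters' processing notes, the tools were Bowtie2 2.4.2, HTSeq 0.9.1 and DESeq2 2.11.40.7 on hg38. The authors deposited counts per gene symbol and library, as whole numbers that are not normalized. A table of the authors' own comparisons (log2 fold changes and p-values) was not used. Strand setting, annotation and the part of the transcript covered are not given in the sources used here. Bowtie2 does not split reads over introns, so reads at exon junctions can be missing.

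Genes were filtered with filterByExpr and scaled by TMM (factors 0.969 to 1.04). All libraries entered 1 quasi-likelihood fit (edgeR 4.0.16, R 4.3.3; residual df, 12), and p-values were adjusted by the method of Benjamini and Hochberg over 15298 genes. An SE is the log2 fold change divided by the square root of F. Alternatives were DESeq2 1.42.0, DESeq2's size factors, library size alone, all genes kept, only genes with 10 or more counts in each library, a replicate block, the libraries of each comparison alone, a fold change of 2, and each library left out. The script was tested on simulated counts. Named genes are the 4 members, the genes of 6 lists of the plasminogen system that passed a threshold or could not be tested, and the 3 genes nearest to each member by Pearson's r over genes averaging 5 CPM or more. The siRNA targets, cell type markers, NR3C1 and the glucocorticoid targets FKBP5, TSC22D3 and PER1 were named as checks. The members and lists were chosen with earlier results of these data known. Coordinates are from GENCODE 44 (hg38), and promoter sequences from RefSeq (GRCh38.p14), which held 5 windows for PLAU, PLAUR and SERPINE2.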

Additional observations from a re-analysis of the deposited data

Results flagged for a closer look

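The responses of 2 members to Dex differed between cell states by the edgeR interaction test. For PLAT the response in siHP1γ cells was smaller than that in siNS cells (difference -0.97 on the log2 scale, adjusted p = 0.000872), and it kept its call in all 25 other settings. For PLAU the fall in siPRMT5 cells was smaller than that in siNS cells (difference 0.56, adjusted p = 0.00184), again in all 25 settings.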

How the results depend on the processing

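Of 44 results for the members (4 genes in 11 comparisons), 37 kept their direction and their side of the threshold under 7 alternatives and with each of 18 libraries left out. With library size alone as the scaling, PLAUR passed for HP1γ depletion without Dex (0.28), PLAUR lost its call for PRMT5 against HP1γ depletion with Dex (0.17), and PLAT passed for that comparison without Dex (-0.31); this scaling also moved the share of calls that were higher from 48.7% to 69.2% for HP1γ depletion with Dex and from 52.1% to 63.8% without Dex. With no filter on low counts, PLAU lost its call for PRMT5 depletion with Dex (0.20), PLAUR passed for HP1γ depletion without Dex (0.23) and PLAU passed for the difference of the Dex response in siHP1γ cells (-0.38). With the libraries of each comparison alone, PLAUR passed for HP1γ depletion without Dex (0.20), PLAUR lost its call for PRMT5 against HP1γ depletion with Dex (0.24) and PLAT passed for that comparison without Dex (-0.25). DESeq2 called PLAU for the difference in siHP1γ cells (-0.36). The cause of these changes was not tested. The number of genes called for that difference was 61, and it was 374 with no filter, 147 with DESeq2 and 94 with the replicate block; a fold change of at least 2 left 194 genes of 414 in the Dex response of siNS cells. With 1 library left out, the ranges were -0.017 to 0.034 for the Dex response of SERPINE2 in siNS cells and -0.060 to 0.00099 in siHP1γ cells, 0.17 to 0.25 for PLAU after PRMT5 depletion with Dex, 0.14 to 0.25 for PLAUR after HP1γ depletion without Dex, -0.42 to -0.30 for PLAU in the difference in siHP1γ cells, 0.16 to 0.33 for PLAUR and -0.34 to -0.19 for PLAT between the depletions with and without Dex, and 20 to 186 and 319 to 897 genes called for the differences in siHP1γ and siPRMT5 cells. Deviations of same-numbered libraries correlated at -0.156 to 0.269 over 45 pairs, and 9 of 18 libraries correlated best with their own number. These values do not settle whether the replicate numbers pair the libraries. The replicate block changed no call of a member. Of 122 calls in the lists, 12 were lost under another setting than leaving out a library, and 0 changed sign.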
